A study of Homo sapiens with 9 samples.

Results

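GBM43 glioblastoma cells that had left the cell mass and entered a hyaluronic acid gel were compared with the cells that stayed in the core of the same kind of device. The comparison used 6 of the 9 RNA-seq libraries of the series, 3 from the core fraction and 3 from the invasive fraction of control devices, and the remaining 3, from devices given the NMDA receptor blocker MK801, were not part of it. GBM43 is a human glioblastoma line, grown here in DMEM with fetal bovine serum, penicillin/streptomycin and Glutamax, then seeded into 3D invasion devices. The fractions were cut apart with a scalpel, the gel was digested with hyaluronidase, and poly-A RNA was sequenced. All 6 libraries therefore share the line, the gel, the enzyme digestion and the control condition, which the descriptions give as plain culture medium in one place and as the vehicle DMSO in another. The cut decides which cells count as invasive, and no marker was used to sort them. Levels are FPKM as deposited, which are fragments divided by the length of the gene and by a total for the library. Of 58735 genes in the table, 11313 reached 1 FPKM in at least 3 of the 6 libraries and were tested.

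Glioblastoma cells spread into brain tissue by moving along and through a matrix that is rich in hyaluronan and poor in fibrillar collagen. To do so they bind the matrix through receptors such as CD44 and integrins, cut it with secreted proteases, and lay down matrix proteins of their own. Cells in a dense core have less room, oxygen and nutrients than cells at the edge, and invasion has long been discussed as an alternative to proliferation in these tumours. The comparison asks which transcripts separate the cells that moved from those that did not.

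The 6 libraries held 15.6 to 23.7 M fragments on genes in all, 23.7, 15.6 and 18.3 M in the core and 16.7, 22.8 and 18.7 M in the invasive fraction. With every library thinned to 15.6 M fragments, core libraries had 20322 to 21414 genes with a fragment and invasive libraries 15975 to 19140, the fewest being in invasive replicate 2. That replicate also had the lowest share of mitochondrial fragments, 2.48%, against 3.82 to 4.86% in the other 5 libraries. Fragments came from more GC-rich transcripts in the invasive libraries, with a weighted mean of 51.9 to 53.7% GC, than in the core libraries, at 49.0 to 50.3%. Correlations across genes were 0.971 to 0.978 among core libraries, 0.959 to 0.981 among invasive libraries and 0.831 to 0.954 between fractions. Nothing in the descriptions says that the 3 libraries of a fraction came from separate cultures, so every p-value rests on a spread between libraries that may be technical.

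Differences between fractions followed the GC content of the gene, taken from its longest annotated transcript. Across 11309 genes with known GC content, the log2 difference (invasive minus core, on log2(FPKM + 1)) had a Spearman correlation of 0.77 with GC content and -0.15 with gene length, and a straight line in GC content held 55.8% of its variance. In the tenth of genes with the lowest GC content, up to 38.5%, the median log2 difference was -0.80, and 847 of 1131 genes were lower in the invasive fraction against 5 higher. In the tenth with the highest GC content, from 61.4%, the median was 0.79, and 833 genes were higher against 3 lower. Differences between libraries of the same fraction followed GC content too, with Spearman correlations of 0.15 to 0.64 within the core and 0.40 to 0.60 within the invasive fraction. For the 9 pairs of 1 invasive and 1 core library the values ran from 0.58 to 0.78, so the largest within-fraction values overlapped the smallest between-fraction ones.

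**Figure D1:**
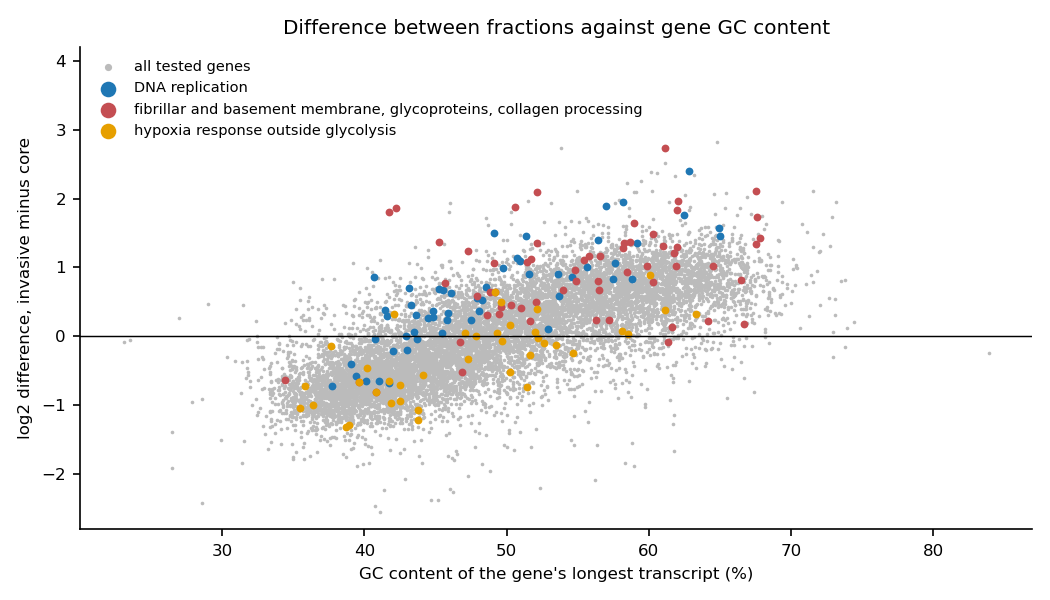
Log2 difference between fractions (invasive minus core, vertical axis) against the GC content of the gene's longest transcript (percent, horizontal axis) for each tested gene, with members of 3 groups of gene lists in colour. The cloud rises with GC content (Spearman correlation 0.77), matrix and DNA replication genes lie mostly above other genes of like GC content, and hypoxia genes mostly at or below them: after the trend is removed the difference is above 0 for 49 of 54 replication genes and below 0 for 28 of 39 hypoxia genes.

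Each gene was therefore tested in a pair of fits with limma, a linear model across all genes with moderated errors. The first used the values as they are. The second first subtracted from each library its own trend over GC content, which also takes away any biology that follows GC content. A difference was called where the adjusted p was under 0.05. Without removal 6182 genes were called (54.6%), 3143 higher (27.8%) and 3039 lower (26.9%) in the invasive fraction. The fractions did not overlap for 7484 genes (66.2% of those tested), so a lack of overlap alone does not mark out a gene. With removal 2312 were called (20.4%), 1232 higher (10.9%) and 1080 lower (9.55%). Both fits called 1620 genes in the same direction (14.3%), 911 higher (8.05%) and 709 lower (6.27%), and 0 genes in opposite directions. Below, a gene rose or fell only where both fits called it, and the shares 8.05% and 6.27% are the background for each list. These shares differ with GC content, since the fit without removal must agree. Of 1131 genes each, 5 rose and 66 fell in the tenth with the lowest GC content, and 135 rose and 3 fell in the tenth with the highest. For lists of high GC content a count of 0 fallen therefore says little. Median GC content was 60.3% for fibrillar collagens, 58.9% for basement membrane, 58.2% for collagen processing and 60.2% for axon guidance.

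These calls rest on the spread of 6 libraries. When the 3 MK801 libraries were added to the fit as a group of their own, so that their spread entered the error, 13 genes were called without removal and 53 with it (4397 and 2582 at an unadjusted p under 0.05). Of the genes named below, 4 were among those 13, namely CEMIP, CSF1, CTGF and CYR61. Leaving out 1 library kept the direction of all 1620 genes in every such fit, while 248 of them kept both calls in every one. The calls in both fits numbered 210 higher and 120 lower without core replicate 3, 226 and 120 without core replicate 2, 456 and 314 without invasive replicate 1, and 550 and 409 without core replicate 1. Without invasive replicate 2, which stood apart in genes detected, they numbered 815 and 661. Counts for single lists in these fits are given with the main lists, as the range over the 6 fits or by library. They are to be set against these counts for all tested genes, which were also lowest without core replicates 2 and 3. Counts on recovered fragments, which scale each library to its gene total, shifted the median difference of all tested genes to -0.33 and split 5866 calls into 1854 higher and 4012 lower, and genes of at least 5 FPKM split 2637 to 1647 around a median of 0.27.

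**Figure D2:**
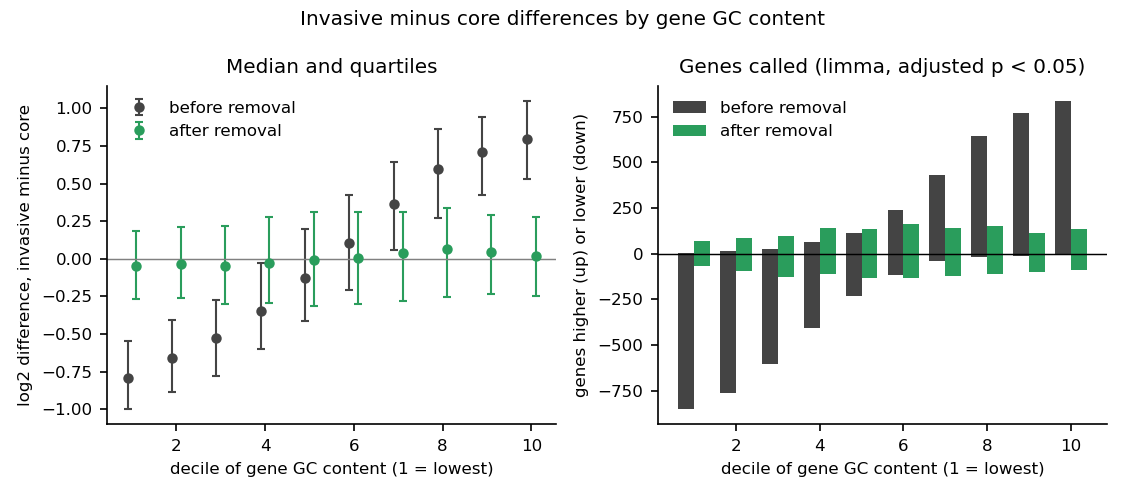
Left, median and quartiles of the log2 difference (invasive minus core) in 10 equal groups of genes ordered by GC content, before and after the trend was removed. Right, the number of genes called higher (up) or lower (down) in each group. Before removal the medians climb from -0.80 to 0.79, and after it they lie between -0.05 and 0.07.

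Among protein-coding genes of at least 5 FPKM called in both fits, with fractions that do not overlap, MDFI had the largest difference on the higher side. MDFI (ENSG00000112559, chromosome 6, 41636882 to 41654246), an inhibitor of myogenic transcription factors, was at 2.91, 2.29 and 1.32 FPKM in the core and 19.1, 23.8 and 19.99 FPKM in the invasive libraries. That rule fixed the lack of overlap in advance. MDFI differed by log2 2.82 (SE 0.21, limma adjusted p = 0.000806) without and log2 2.04 (SE 0.15, limma adjusted p = 0.00217) with GC removal. Behind it came COL1A1, BGN, TK1, SDC1, MYBL2, PHLDA2, GAS6, CSF1, HTRA1, UNC5B and LOXL1, with differences of log2 2.12 to 2.74 without removal. GAS6, the secreted ligand of the TAM receptor kinases, was at 6.1, 3.84 and 4.04 FPKM in the core and 25.7, 30.4 and 25.1 FPKM in the invasive libraries, 5.8-fold higher in the invasive fraction. AXL, a receptor for GAS6, rose as well, 109 against 48.5 FPKM (log2 1.16 without and 0.76 with GC removal). CSF1, a macrophage growth factor, was at 8.62, 4.44 and 7.19 FPKM in the core and 33.2, 37.5 and 34.6 FPKM in the invasive libraries, with the 3 invasive values within a narrow range. UNC5B, a netrin receptor, was at 13 against 2.21 FPKM, and PHLDA2, a small protein with a PH domain, at 18.7 against 3.04 FPKM.

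On the lower side, the 12 most reduced genes under the same rule were RND3, TCEAL9, SCG5, EVI2A, RPS24, IFI44, IL36RN, CLK1, ARRDC3, LY96, UFM1 and RSL24D1, with differences of log2 -1.76 to -1.55. RND3 (ENSG00000115963, chromosome 2, 150468195 to 150539011), a small GTP-binding protein that opposes actin contraction, was at 102, 116 and 169 FPKM in the core and 30.4, 31.8 and 50.5 FPKM in the invasive libraries. The difference was log2 -1.76 (SE 0.26, limma adjusted p = 0.00274) without and log2 -1.08 (SE 0.16, limma adjusted p = 0.00972) with GC removal. SCG5, a secretory chaperone of neuroendocrine cells, was at 7.87, 13.3 and 11.8 FPKM in the core and 2.47, 3.36 and 2.03 FPKM in the invasive libraries. IL36RN, an antagonist of the interleukin 36 receptor, was at 1.09 against 5.16 FPKM. IFI44, an interferon-induced gene, was at 12.8 against 43 FPKM, whereas IFITM2, also induced by interferon, was higher at 128 against 42 FPKM. Of 22 interferon-stimulated genes tested these were the only ones called in both fits.

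COL1A1 (ENSG00000108821, chromosome 17, 50183289 to 50201632), the alpha 1 chain of type I collagen, was at 57.8, 27.2 and 27.2 FPKM in the core and 217, 341 and 185 FPKM in the invasive libraries. The means differed 6.62-fold, with log2 2.74 (SE 0.33, limma adjusted p = 0.00256) without and log2 2.03 (SE 0.26, limma adjusted p = 0.00896) with GC removal. COL1A2, the partner chain, is a gene of low GC content (41.7%) and was at 68.9, 31.9 and 40.8 FPKM in the core and 156, 205 and 127 FPKM in the invasive libraries, so its difference grew when the trend was removed (log2 1.81 without and 2.32 with GC removal). Of 7 fibrillar collagen genes tested, 4 rose (COL1A1, COL1A2, COL3A1 and COL5A1) and 0 fell, and the median log2 difference was 1.36 without and 0.80 with removal, against 0.00 for all tested genes in either fit. COL5A2 and COL5A3 missed the threshold in one or both fits, and COL27A1, at 2.99 ± 0.145 FPKM in invasive and 3.25 ± 0.244 FPKM in core libraries, was called lower only after removal. Without core replicate 2 or core replicate 3 the count that rose was 2.

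FN1, which encodes fibronectin, a matrix protein that integrins bind, was at 40.5, 22.1 and 18.2 FPKM in the core and 92.1, 145 and 64.6 FPKM in the invasive libraries. Its GC content is low (42.2%) and its difference was log2 1.87 (SE 0.34, limma adjusted p = 0.00396) without and log2 2.34 (SE 0.40, limma adjusted p = 0.0111) with GC removal. Among 22 matrix glycoproteins tested, 11 rose and 0 fell, with a median of log2 0.88 without and 0.55 with removal. TGFBI, an adhesive protein induced by TGF-beta, was at 102, 58.7 and 57 FPKM in the core and 236, 413 and 180.1 FPKM in the invasive libraries. SPARC, a collagen-binding matricellular protein, was at 87.9, 60.5 and 66.9 FPKM in the core and 154, 215 and 145 FPKM in the invasive libraries, again with no overlap between fractions. IGFBP7, a secreted protein of vessel walls and mesenchymal cells, was almost absent from the core, at 0.112, 0 and 0.46 FPKM in the core and 2.91, 4.75 and 4.67 FPKM in the invasive libraries. The others that rose were FBLN7, THBS1, THBS2, ECM1, WISP1, LTBP3 and EMILIN1. The count was 5 without core replicate 2 and 6 without core replicate 3.

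Of 21 tested enzymes that mature collagen, 9 rose and 0 fell, with a median of log2 1.03 without and 0.48 with removal. LOXL1, which crosslinks collagen and elastin, was at 19.9, 8.09 and 10.5 FPKM in the core and 53.2, 58.3 and 54.3 FPKM in the invasive libraries. The 3 invasive values were nearly equal, and the difference was log2 2.12 (SE 0.27, limma adjusted p = 0.00256) without and log2 1.28 (SE 0.27, limma adjusted p = 0.018) with GC removal. PCOLCE, an enhancer of the protease that trims procollagen, was at 60.7 against 14.5 FPKM, and BMP1, that protease, at 9.21 against 3.06 FPKM. SERPINH1, a collagen chaperone of the endoplasmic reticulum, was at 101 against 44.4 FPKM. The hydroxylases PLOD1, PLOD3, P3H1 and P3H3 and the glycosyltransferase COLGALT1 completed the group. LOX, another crosslinking enzyme, was lower before removal (22.2 against 35.9 FPKM, log2 -0.67) and near 0 after it (log2 -0.03). Without core replicates 2 or 3 or invasive replicate 1 the list count was 3, 2 and 4.

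Of 11 basement membrane genes tested, 5 rose (COL4A1, COL4A2, LAMB3, NID1 and AGRN) and 0 fell. COL4A2, a chain of the network collagen of basement membranes, was at 6.35, 3.21 and 4.22 FPKM in the core and 18.9, 23.2 and 14 FPKM in the invasive libraries. The list median shrank from log2 1.03 to 0.31 when the GC trend was removed, and 2 to 4 genes rose when 1 library was left out, fewest without core replicate 3. Of 10 other collagens, COL18A1 alone was called in both fits, and it rose. COL6A1, COL6A2 and COL6A3, chains of microfibril collagen, had higher means in the invasive fraction but missed the threshold after removal (COL6A1 746 against 288 FPKM, log2 1.34 without and 0.58 with GC removal).

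Proteoglycans and hyaluronan genes were called in both directions. Of 13 proteoglycan genes tested 3 rose and 1 fell, and of 8 hyaluronan genes 2 rose and 1 fell. The difference was above 0 for 10 of the 13 proteoglycans in either fit, and for 4 of the 8 hyaluronan genes without and 6 with removal. BGN, the small leucine-rich proteoglycan biglycan, was at 80.2, 54.3 and 40.1 FPKM in the core and 222, 837 and 182 FPKM in the invasive libraries. Invasive replicate 2 stood far above the other invasive libraries, and the rule that picked BGN required fractions that do not overlap. SDC1, a heparan sulfate proteoglycan of the cell surface, was at 3.54, 1.6 and 2.54 FPKM in the core and 17.9, 17.5 and 16.2 FPKM in the invasive libraries, while GPC6, a heparan sulfate proteoglycan anchored in the membrane, fell (5.58 against 12.6 FPKM). Hyaluronan is the polymer of the gel itself. HAS2, a hyaluronan synthase, fell and was at 14.3, 17.2 and 12.9 FPKM in the core and 4.87, 3.51 and 5.32 FPKM in the invasive libraries. CEMIP, which takes part in hyaluronan breakdown, rose from near absence and was at 0.344, 0.168 and 0.291 FPKM in the core and 3.35, 3.02 and 5.5 FPKM in the invasive libraries, with log2 1.94 (SE 0.21, limma adjusted p = 0.00235) without and log2 1.59 (SE 0.24, limma adjusted p = 0.00972) with GC removal. HYAL2, a hyaluronidase at the cell surface, rose too (19.7 against 7.95 FPKM). CD44, the main hyaluronan receptor, was at 84.2 ± 19.6 FPKM in invasive and 62.1 ± 5.46 FPKM in core libraries and missed the threshold in both fits, with an adjusted p of 0.0524 after removal, and its sign turned under quantile normalization without removal (log2 -0.08). When 1 library was left out, 2 to 4 proteoglycans and 1 or 2 hyaluronan genes rose and at most 1 of each list fell.

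In the lists of proteases and inhibitors more genes rose than fell. The falls were few and near the 6.27% of all tested genes that fell. Of 29 matrix proteases tested, 6 rose (MMP2, PLAU, PLAT, ADAM15, HTRA1 and HTRA3) and 2 fell (MMP1 and CTSK). MMP1, an interstitial collagenase, was at 66.3, 95.2 and 75.3 FPKM in the core and 23.5, 36.3 and 31.4 FPKM in the invasive libraries. MMP2, a gelatinase, was at 231, 182 and 159 FPKM in the core and 376, 457 and 357 FPKM in the invasive libraries, so these family members moved in opposite directions with no overlap between fractions. HTRA1, a secreted serine protease, was at 36.4, 14 and 20.5 FPKM in the core and 112, 112 and 95.4 FPKM in the invasive libraries. Among 11 genes of the protease inhibitor list 4 rose (TIMP2, TIMP3, CST3 and SERPINF1) and 1 fell (TFPI2). SERPINF1 belongs to the serpin family but is not a protease inhibitor itself. CST3, the cathepsin inhibitor cystatin C, was at 13.8, 10.3 and 8.36 FPKM in the core and 34.4, 49.5 and 36.4 FPKM in the invasive libraries, with log2 1.81 (SE 0.22, limma adjusted p = 0.00256) without and log2 2.01 (SE 0.22, limma adjusted p = 0.00705) with GC removal. TIMP3, a matrix-bound inhibitor of metalloproteinases, was at 20.3, 8.77 and 14.5 FPKM in the core and 42.3, 46.7 and 43.7 FPKM in the invasive libraries, and its difference was the same before and after removal (log2 1.61). TFPI2, an inhibitor of plasmin and other serine proteases, was at 5.04 against 15.4 FPKM. The medians of both lists turned below 0 on recovered fragments (log2 -0.15 and -0.18, against 0.11 and 0.14 on FPKM and -0.33 for all tested genes on fragments). When 1 library was left out, 1 to 4 proteases rose and 0 to 2 fell, with 0 falling without core replicate 2 or 3. In these fits 3 or 4 genes of the inhibitor list rose.

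**Figure D3:**
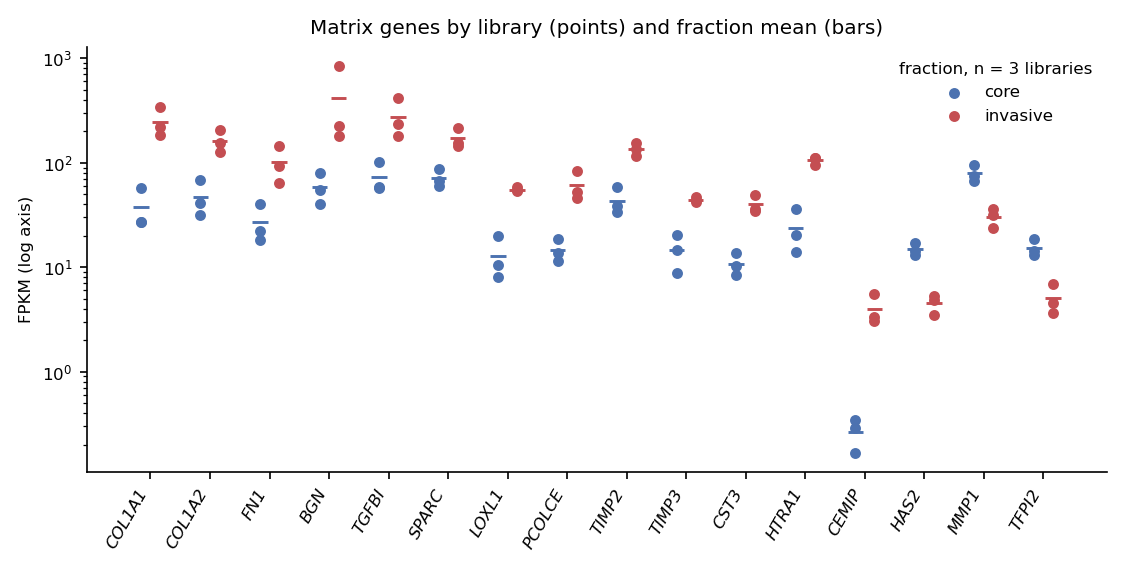
FPKM (log axis) of 16 genes of the matrix, its enzymes and inhibitors in each library, with bars at the fraction means. Fractions do not overlap for any gene shown, as for 66.2% of all tested genes. Of those shown, 13 are higher in the invasive fraction, HAS2, MMP1 and TFPI2 are lower, and BGN has 1 invasive library at 837 FPKM.

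Genes of secreted CCN proteins rose, while the genes of factors that act upstream of them did not. YAP1 and its relative WWTR1 carry signals from cell tension into the nucleus, where they bind TEAD factors. CTGF (CCN2), a standard readout of that pathway, was at 12.9, 7.64 and 12.4 FPKM in the core and 54.3, 33.6 and 49.1 FPKM in the invasive libraries. CYR61 (CCN1), another, was at 41.6, 38.8 and 46.5 FPKM in the core and 147, 98.9 and 158 FPKM in the invasive libraries. Both fractions were clearly separate for each gene, with log2 1.97 (SE 0.24, limma adjusted p = 0.00256) without and log2 1.75 (SE 0.25, limma adjusted p = 0.00972) with GC removal for CTGF and log2 1.62 without and 1.49 with GC removal for CYR61. ANKRD1, also used as a readout, went the other way, at 1.54, 1.24 and 1.97 FPKM in the core and 0, 0.0281 and 0.203 FPKM in the invasive libraries. YAP1 itself fell (14.1 against 24.5 FPKM), and WWTR1 was called lower before removal but not after it (log2 -0.53 without and 0.04 with GC removal). Of 27 genes of the list, 4 rose (CTGF, CYR61, AXL and ARHGEF17) and 4 fell (YAP1, ANKRD1, GADD45A and NT5E), so the list did not move in 1 direction. When 1 library was left out, 2 to 4 rose and 0 to 5 fell, fewest without core replicate 3.

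The promoter of CTGF is shown because the motif of TEAD factors, GGAATG, stands in it several times. The window covers 250 bases before and 50 after the annotated start in RefSeq on GRCh38.p14, with the motif in capitals.
CCN2 (chr6:131951323-131951622, minus strand): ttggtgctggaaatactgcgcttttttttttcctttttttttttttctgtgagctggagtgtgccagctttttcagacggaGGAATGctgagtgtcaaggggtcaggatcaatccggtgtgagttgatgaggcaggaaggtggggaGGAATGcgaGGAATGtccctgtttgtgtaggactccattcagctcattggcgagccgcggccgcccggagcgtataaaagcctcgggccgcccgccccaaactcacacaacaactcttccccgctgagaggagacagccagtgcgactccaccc
The motif was found 3 times on the gene's strand, 169, 104 and 95 bases before the start. Searched on both strands, GGAATG was in 14.05% of 27305 RefSeq promoters of this length, in 10.7% of 8077 promoters of tested protein-coding genes, and in 6 of 19 list members with a promoter entry (31.6%). A match is a description of letters, not of a bound site.

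Of 48 actin and motility genes 10 rose and 1 fell, and of 33 integrin and focal adhesion genes 6 rose and 2 fell. ACTB, beta-actin, was at 908, 745 and 702 FPKM in the core and 1863, 2317 and 1763 FPKM in the invasive libraries with no overlap between fractions. CNN2, an actin-binding calponin, was at 61.7 against 19.2 FPKM, and ITGB5, a chain of a vitronectin receptor, at 66 against 26.3 FPKM. LIMS1, an adaptor between integrins and actin, fell (11.4 against 33.8 FPKM). When 1 library was left out, 1 to 7 actin genes and 1 to 5 adhesion genes rose, fewest without core replicates 2 and 3. The actin list median was log2 0.16 without removal and turned to -0.17 under quantile normalization and -0.15 on recovered fragments. The medians of all tested genes in those settings were 0.02 and -0.33. The adhesion list median went from log2 0.61 without to 0.08 with removal, after which 7 were called higher and 3 lower. Among guidance genes 8 of 36 rose, including EPHA2, an ephrin receptor (70.2 against 21.2 FPKM), PLXND1 and SLIT2, and 0 fell (4 rose without core replicate 2 or 3). The guidance list as a whole kept no direction after removal. Its median went from log2 0.51 to 0.003, with 18 differences above and 18 below 0, and 8 genes called higher and 2 lower. Of 14 mesenchymal transition factors and cadherins, 0 were called in both fits, while 4 were called higher and 3 lower without removal.

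Of 54 DNA replication genes tested, 24 rose and 0 fell. Without removal 29 were called higher and 5 lower, and with removal 33 were called higher and 0 lower. The median was log2 0.57 in both fits. MCM2, a subunit of the replicative helicase, was at 13, 7.01 and 9.43 FPKM in the core and 38.2, 49.1 and 33.1 FPKM in the invasive libraries. TK1, which makes thymidine phosphate for DNA synthesis, was at 16.7, 9.23 and 13.2 FPKM in the core and 58, 103 and 60.6 FPKM in the invasive libraries. GINS2, part of the helicase complex, was at 6.87, 3 and 7.12 FPKM in the core and 17.5, 17.7 and 15.9 FPKM in the invasive libraries, with log2 1.5 (SE 0.26, limma adjusted p = 0.00362) without and log2 1.47 (SE 0.26, limma adjusted p = 0.0119) with GC removal. MCM6 (43.1% GC), another helicase subunit, was at 7.91, 4.96 and 7.99 FPKM in the core and 10.6, 12.6 and 12 FPKM in the invasive libraries, so it rose although most genes of its GC content were lower. E2F1, a transcription factor of the switch into S phase, was at 19.8 against 5.24 FPKM, and MYBL2, a transcription factor of S phase and mitosis, at 33.7 against 5.81 FPKM.

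Of 55 mitotic genes tested, 18 rose and 0 fell, with a median of log2 0.37 without and 0.54 with removal. Without removal 24 were called higher and 3 lower, and 25 of the 55 had a negative difference. CDC20, an activator of the anaphase-promoting complex, was at 35.8, 19.8 and 23.9 FPKM in the core and 89.7, 137 and 91.6 FPKM in the invasive libraries. CCNB1, the mitotic cyclin B1 (43.2% GC), was at 28.5, 20.3 and 32.9 FPKM in the core and 53.4, 63.8 and 54.2 FPKM in the invasive libraries. FOXM1, a transcription factor of mitotic genes, was at 19.3 against 5.36 FPKM. MKI67, the gene of the Ki-67 antigen, was at 6.59, 3.92 and 7.12 FPKM in the core and 7.07, 7.59 and 8.7 FPKM in the invasive libraries, which overlapped between fractions and missed the threshold (limma adjusted p = 0.138 without and 0.167 with removal). CDKN1B, the CDK inhibitor p27, fell (6.47 against 10.8 FPKM). Core replicate 2 had the lowest value for each of MCM2, TK1, GINS2, MCM6, CDC20 and CCNB1. Without it the counts in both fits were 7 replication and 6 mitotic genes higher, 0 lower. Over all tested genes the calls higher in both fits went from 911 to 226 without that library, so the drop was not particular to these lists. The replication and mitotic counts were 11 and 9 without core replicate 3, 10 and 14 without invasive replicate 1, and 0 fell in any of these fits. In bulk RNA, more cycling cells and more of these transcripts per cell cannot be told apart.

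Promoters of 2 replication genes are shown because these genes moved together and E2F motifs mark many of them. The motifs searched were TTTCCCGC and TTTGGCGC on both strands, in capitals below, in the same window as above.
GINS2 (chr16:85688905-85689204, minus strand): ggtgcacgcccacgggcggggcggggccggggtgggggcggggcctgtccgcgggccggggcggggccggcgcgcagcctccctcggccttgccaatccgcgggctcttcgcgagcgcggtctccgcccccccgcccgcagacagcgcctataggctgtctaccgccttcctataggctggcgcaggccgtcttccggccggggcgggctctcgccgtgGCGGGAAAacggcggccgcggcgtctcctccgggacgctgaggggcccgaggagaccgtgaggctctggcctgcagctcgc
MCM6 (chr2:135876394-135876693, minus strand): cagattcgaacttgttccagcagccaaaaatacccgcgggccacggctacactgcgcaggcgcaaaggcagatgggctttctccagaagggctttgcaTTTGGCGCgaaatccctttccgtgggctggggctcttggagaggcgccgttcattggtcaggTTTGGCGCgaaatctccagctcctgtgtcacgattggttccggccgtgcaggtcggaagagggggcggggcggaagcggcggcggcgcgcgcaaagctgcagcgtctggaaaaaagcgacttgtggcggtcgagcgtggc
Either motif was in 23 of 47 replication genes with a promoter entry (48.9%) and in 13 of the 22 called in both fits (59.1%), against 4.04% of tested protein-coding genes and 2.31% of all 27305 promoters. The GINS2 match lies 31 bases before the start and the MCM6 matches 152 and 90 bases before it. Among all tested protein-coding genes the motifs were in 4.31% of 720 promoters of genes that rose and 3.40% of 471 promoters of genes that fell.

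More genes of lipid synthesis rose than fell, although most were not called in both fits. Of 29 genes of cholesterol synthesis and uptake, 9 rose and 1 fell, with a median of log2 0.55 without and 0.42 with removal. FDFT1, which makes squalene in the committed step toward sterols, was at 66.9, 56.3 and 49.3 FPKM in the core and 128, 158 and 123 FPKM in the invasive libraries, with no overlap between fractions. FDPS, the enzyme before it, was at 45.8 against 18.1 FPKM, and ABCA1, which exports cholesterol, fell (2.62, 3.97 and 4.09 FPKM in the core and 1.39, 0.861 and 1.24 FPKM in the invasive libraries). Of 26 fatty acid genes 7 rose and 0 fell. FASN, fatty acid synthase, was at 66.9, 45.6 and 40.9 FPKM in the core and 147, 264 and 161 FPKM in the invasive libraries, and FADS2, a desaturase, at 126 against 34.5 FPKM, and the shared regulator SREBF1 at 24.7 against 9.82 FPKM. The fatty acid median was log2 0.16 without removal and turned to -0.11 on recovered fragments, where the median of all tested genes was -0.33. Without core replicate 2 or 3 the counts that rose were 3 and 3 in each list, and without invasive replicate 1 they were 5 and 4.

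Hypoxia response genes outside glycolysis were lower or did not pass the test. Of 39 tested, 5 fell (BNIP3, BNIP3L, MXI1, ERO1A and KDM3A) and 0 rose, and with removal alone 10 were called lower and 0 higher. BNIP3, a mitophagy receptor, was at 48.7, 49.3 and 52.4 FPKM in the core and 27.9, 29.5 and 31.7 FPKM in the invasive libraries. The 3 libraries of each fraction were close to each other, and the difference was log2 -0.74 (SE 0.15, limma adjusted p = 0.00537) without and log2 -0.95 (SE 0.12, limma adjusted p = 0.00896) with GC removal. MXI1, an antagonist of MYC, was at 21.7, 31.6 and 25 FPKM in the core and 10.8, 9.45 and 11.5 FPKM in the invasive libraries. ERO1A, an oxidase of protein folding, was at 31.5, 41.3 and 39.8 FPKM in the core and 14.4, 12.3 and 16.8 FPKM in the invasive libraries. The list median was log2 -0.25 in both fits, and the count that fell was 2 without core replicate 2 and 4 to 7 without any other library. CA9, a carbonic anhydrase widely used as a hypoxia marker, went the other way before removal (382 ± 175 FPKM in invasive and 194 ± 40.7 FPKM in core libraries, log2 0.89, limma adjusted p = 0.0423) and was not called after it (log2 0.22, limma adjusted p = 0.516; -0.17 after it under quantile normalization). VEGFA, the vascular growth factor, was at 68.2 ± 12 FPKM in invasive and 81.8 ± 18 FPKM in core libraries and was called in neither fit. HIF1A, the oxygen-regulated factor, was called lower only before removal (log2 -0.996 without and -0.25 with GC removal).

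Promoters of BNIP3 and ERO1A are shown with ACGTG, the core of the element that HIF factors bind, in capitals on either strand.
BNIP3 (chr10:131981874-131982173, minus strand): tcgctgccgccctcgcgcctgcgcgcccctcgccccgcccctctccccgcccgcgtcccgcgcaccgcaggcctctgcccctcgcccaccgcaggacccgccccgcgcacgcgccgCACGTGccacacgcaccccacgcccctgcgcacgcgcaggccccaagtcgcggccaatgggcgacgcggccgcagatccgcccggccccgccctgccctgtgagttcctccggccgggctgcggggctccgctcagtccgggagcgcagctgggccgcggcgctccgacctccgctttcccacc
ERO1A (chr14:52695509-52695808, minus strand): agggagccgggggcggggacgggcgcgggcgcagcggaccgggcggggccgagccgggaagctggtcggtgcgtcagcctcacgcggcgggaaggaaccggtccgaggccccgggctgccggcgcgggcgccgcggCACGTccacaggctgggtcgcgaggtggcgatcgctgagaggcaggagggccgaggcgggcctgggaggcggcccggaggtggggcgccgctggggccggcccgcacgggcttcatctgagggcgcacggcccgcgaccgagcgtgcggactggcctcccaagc
In BNIP3 the matches of both strands overlap in 1 palindrome 134 to 129 bases before the start, and in ERO1A the match begins 114 bases before it. ACGTG was in 18 of 30 list members with a promoter entry (60%), against 27.8% of tested protein-coding genes. Of the 4 members called in both fits with a promoter entry, 2 held it (50%), and these are the 2 shown. It was in 29.2% of the promoters of genes that rose and in 27.8% of those of genes that fell.

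Of 72 nuclear genes of oxidative phosphorylation, 22 rose and 1, NDUFS4, fell, with a median of log2 0.46 without and 0.38 with removal. COX6A1, a subunit of cytochrome c oxidase, was at 22.3, 27.2 and 18.1 FPKM in the core and 37.5, 51.6 and 34.8 FPKM in the invasive libraries and, with a GC content of 40.8%, its difference grew after removal (log2 0.84 without and 1.41 with GC removal). Of 13 mRNAs of the mitochondrial genome, 1, MT-ND3, rose (2935 against 1489.6 FPKM). The nuclear count that rose was 5 without core replicate 3, 7 without core replicate 2 and 13 without core replicate 1 or invasive replicate 1. The mitochondrial count was 7 without invasive replicate 2, whose mitochondrial share was the lowest, and 0 without core replicates 1 or 3 or invasive replicate 1. Among 33 genes of glycolysis, lactate and the pentose phosphate pathway 5 rose and 0 fell, and 1 or 2 rose without any 1 core library. They include PGD, TKT and TALDO1 of the pentose phosphate pathway. PGD, an enzyme of its oxidative branch, was at 28, 23.8 and 21.9 FPKM in the core and 51.8, 83 and 49.7 FPKM in the invasive libraries. NQO1, a quinone reductase controlled by NRF2, was at 4.88, 2.58 and 4.24 FPKM in the core and 15.8, 19 and 17.2 FPKM in the invasive libraries, with log2 1.93 (SE 0.20, limma adjusted p = 0.00205) without and log2 2.13 (SE 0.20, limma adjusted p = 0.00387) with GC removal. NFE2L2, which encodes NRF2, fell (4.67 against 9.36 FPKM), and of 24 genes of the redox list 4 rose and 1 fell, or 3 and 0 without core replicates 2 or 3 or invasive replicate 1.

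**Figure D4:**
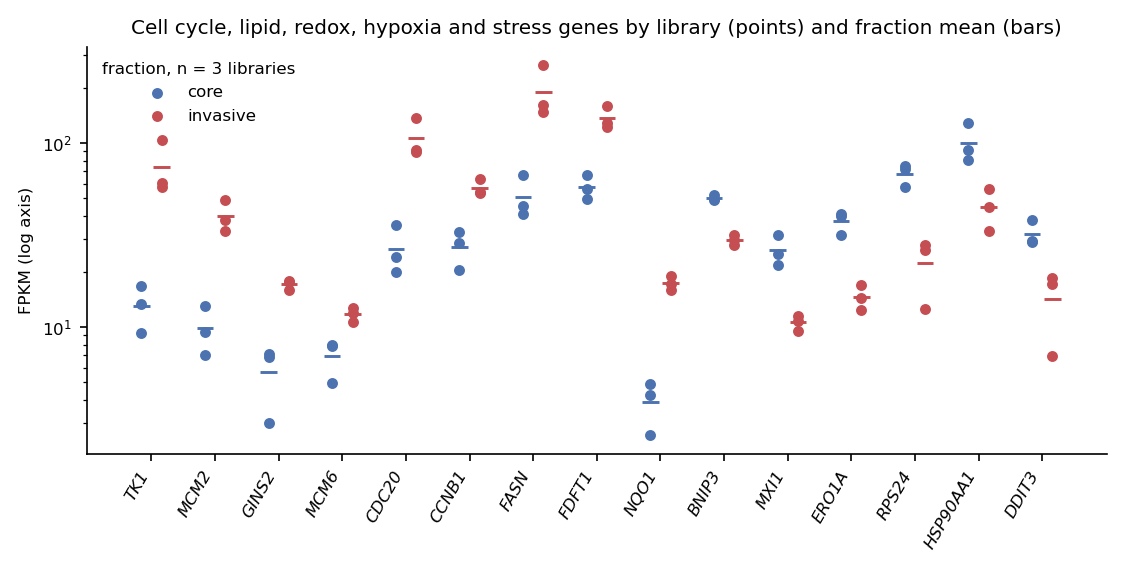
FPKM (log axis) of 15 cell cycle, lipid, redox, hypoxia, ribosome and stress genes in each library, with bars at the fraction means. The 9 genes from TK1 to NQO1 are higher and the 6 from BNIP3 to DDIT3 lower in every invasive library than in any core library. Such a lack of overlap held for 66.2% of all tested genes.

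Lists of protein synthesis and folding did not share a direction. Of 77 cytoplasmic ribosomal protein genes 10 fell and 0 rose, while the list median was log2 0.11 without and 0.03 with removal and turned to -0.35 and -0.38 under quantile normalization. RPS24 was at 57.4, 74.7 and 71.8 FPKM in the core and 26.2, 12.4 and 27.8 FPKM in the invasive libraries, and RPL7 and RPS25 fell as well (135 against 362 FPKM and 323 against 574 FPKM). When 1 library was left out 4 to 8 fell. Among 33 heat shock genes 6 fell and 3 rose, and 2 to 6 fell and 0 to 3 rose when 1 library was left out. Of 25 chaperones of the endoplasmic reticulum 4 rose and 1 fell (9 higher and 2 lower with removal), among them HYOU1, at 16.7 against 7.33 FPKM. Of 20 cytosolic tRNA synthetases 5 rose and 1 fell (7 higher and 1 lower with removal). When 1 library was left out, 0 to 3 of the chaperones rose (0 without core replicate 2 or invasive replicate 1), and 1 to 6 of the synthetases rose and 0 to 4 fell (1 and 0 without core replicate 2 or 3, 5 and 4 without invasive replicate 2). HSP90AA1, the inducible cytosolic HSP90, was at 81.3, 92.2 and 128 FPKM in the core and 33.2, 44.8 and 56.5 FPKM in the invasive libraries. HSPA1A and HSPA1B, nearly identical copies of inducible HSP70 whose reads can be split between them, both fell (20.01 against 40.7 FPKM and 33.2 against 62.5 FPKM) although their GC content is high (59.7% and 58.7%). DDIT3, the stress factor CHOP, fell (28.9, 29.2 and 38.3 FPKM in the core and 17.1, 6.93 and 18.4 FPKM in the invasive libraries), while PHGDH and PSAT1, enzymes of serine synthesis in the same ATF4 list, rose (36.3 against 13.4 FPKM and 12 against 7.4 FPKM). Of 47 splicing factor genes 1 rose and 3 fell, among them CLK1, a kinase of SR proteins (3.25 against 12.2 FPKM). That list depended on the fit, with 3 called higher and 16 lower without removal (median log2 -0.24) and 8 higher and 5 lower with it (median log2 0.11, or -0.17 under quantile normalization). Of 53 lysosome genes 9 rose and 2 fell, with LAMP1, a membrane protein of the organelle, at 46.1 against 19 FPKM and CTSD, cathepsin D, at 60.5 against 19.1 FPKM, and 3 lysosome genes rose without core replicate 2 or 3.

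Immediate-early genes, the first transcripts induced by growth factors and calcium, differed between the fits. Without removal 19 of 34 were called higher and 1 lower, with a median of log2 0.53. With removal 1, SGK1, was called higher and 0 lower, and the median was log2 0.08, or -0.10 under quantile normalization. Without invasive replicate 2, the library with the fewest genes detected, 4 were called higher and 1 lower with removal, 3 of them higher in both fits, and the median with removal was log2 0.21. Without any other library 0 were called higher with removal. JUNB, an AP-1 subunit, was at 199, 199 and 155 FPKM in the core and 419.7, 402 and 346 FPKM in the invasive libraries, and its difference went from log2 1.08 (limma adjusted p = 0.0044) to 0.29 (limma adjusted p = 0.221). FOSL1, another subunit, was at 159, 107 and 127 FPKM in the core and 255, 262 and 248 FPKM in the invasive libraries, from log2 0.97 to 0.29. Under quantile normalization with removal both turned below 0 (log2 -0.08 for JUNB and -0.11 for FOSL1). The fractions do not overlap for either gene, yet their GC contents are 64.9% and 60.04%, and most genes of such GC content were higher in the invasive libraries. Which part of the difference belongs to the genes and which to the trend cannot be told apart.

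Glutamate genes are of interest because the study's title names extracellular glutamate and NMDA receptors. None of 26 glutamate receptor genes reached the level for testing. For GRIN1, the obligatory NMDA receptor subunit, 0 fragments were counted in each of the 6 libraries, and the limit of 3 fragments is at most 0.0266 FPKM, for counting error only. GRIN2D, a regulatory subunit, was at 0.261, 0.332 and 0.226 FPKM in the core and 1.1, 2.29 and 0.374 FPKM in the invasive libraries (38 to 210 fragments there), higher in each invasive library than in any core library but too low to be tested. GRIN2C went the other way, at 0.13, 0.19 and 0.166 FPKM in the core and 0.0766, 0.0972 and 0.0818 FPKM in the invasive libraries (11 to 32 fragments). GRIN3B was at 0.337 to 0.35 FPKM in the core and 0.091 to 0.339 FPKM in the invasive libraries (5 to 32 fragments), which overlap, and GRIN2A, GRIN2B and GRIN3A had 0 to 16 fragments a library. Of 20 genes that carry or convert glutamate, cystine and glutamine, 6 rose and 1 fell, and 3 or 4 rose when 1 library was left out. GLUL, which makes glutamine from glutamate, was at 17.5, 16.9 and 14.8 FPKM in the core and 29.9, 29.4 and 24.2 FPKM in the invasive libraries. The difference was log2 0.72 without and 1.05 with GC removal. GOT2, the mitochondrial aspartate aminotransferase, was at 21.5, 19.8 and 19.5 FPKM in the core and 38.7, 45.9 and 32.2 FPKM in the invasive libraries, and SLC1A4, a transporter of neutral amino acids, at 0.694, 0.428 and 0.499 FPKM in the core and 1.84, 2.13 and 1.73 FPKM in the invasive libraries. The fractions did not overlap for any of these 3 genes.

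Markers of cell identity were checked in all 6 libraries. Of 10 glioblastoma markers 5 were under 1 FPKM in every library (NES, GFAP, FABP7, OLIG2 and CHI3L1, the last pair at 0), while VIM, CD44, EGFR, PDGFRA and SOX2 were measured and none was called in both fits. The most abundant of them, VIM, an intermediate filament of mesenchymal and glial cells, was at 1430.4 ± 584 FPKM in invasive and 1219.8 ± 169 FPKM in core libraries. SOX2, a stem cell factor, was at 2.69, 2.92 and 2.15 FPKM in the core and 1.81, 1.39 and 1.77 FPKM in the invasive libraries. Of 15 glial stem and lineage genes 4 fell (SOX4, SOX11, ID4 and ID2) and 2 rose (ID3 and HES1), while 0 fell when any 1 core library was left out. Summed FPKM of 10 fibroblast and pericyte markers was 73.6 to 148 in core and 357 to 628 in invasive libraries, with 6 of the 8 tested rising. These include the collagens COL1A1, COL1A2 and COL3A1 and PDGFRB, a platelet growth factor receptor (14.9, 9.26 and 10.6 FPKM in the core and 45.5, 64.8 and 34.1 FPKM in the invasive libraries), while DCN and RGS5 stayed under 1 FPKM in all 6 libraries. RGS5 was lower in each invasive library than in any core library. FAP did not rise (2.04 ± 0.866 FPKM in invasive and 2.33 ± 0.488 FPKM in core libraries). The part of fibroblasts or pericytes in the matrix results was not tested. Summed markers of other cell types were low. Those of endothelial cells were at 1.38 to 1.57 FPKM in core and 1.79 to 5.34 FPKM in invasive libraries, with EMCN at 0. CDH5, the cadherin of endothelial junctions, was at 0.00591, 0.00957 and 0.0729 FPKM in the core and 1.43, 3.15 and 0.758 FPKM in the invasive libraries, which do not overlap, and was too low to be tested. Those of myeloid cells were at 1.89 to 3.09 FPKM in core and 4.33 to 5.84 FPKM in invasive libraries, with TYROBP, C1QA and ITGAM at 0 and 8 of 9 markers under 1 FPKM in every library. The ninth, CSF1R, the receptor of CSF1, was at 2.46, 1.79 and 1.71 FPKM in the core and 4.71, 5.74 and 3.98 FPKM in the invasive libraries and was called higher without removal but not with it (log2 0.96 without and 0.38 with GC removal, limma adjusted p = 0.00408 and 0.0682). The higher myeloid sum came from CSF1R, since AIF1, CD14, CD68, CX3CR1 and PTPRC had lower means in the invasive than in the core libraries. Lymphoid markers (0.12 to 0.924 FPKM in core and 0.508 to 1.47 FPKM in invasive libraries), oligodendrocyte markers (at most 0.11 FPKM), neuron markers (3.84 to 6.11 FPKM) and astrocyte markers (6.07 to 10.2 FPKM) overlapped between fractions, and none of their tested members was called.

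**Figure D5:**
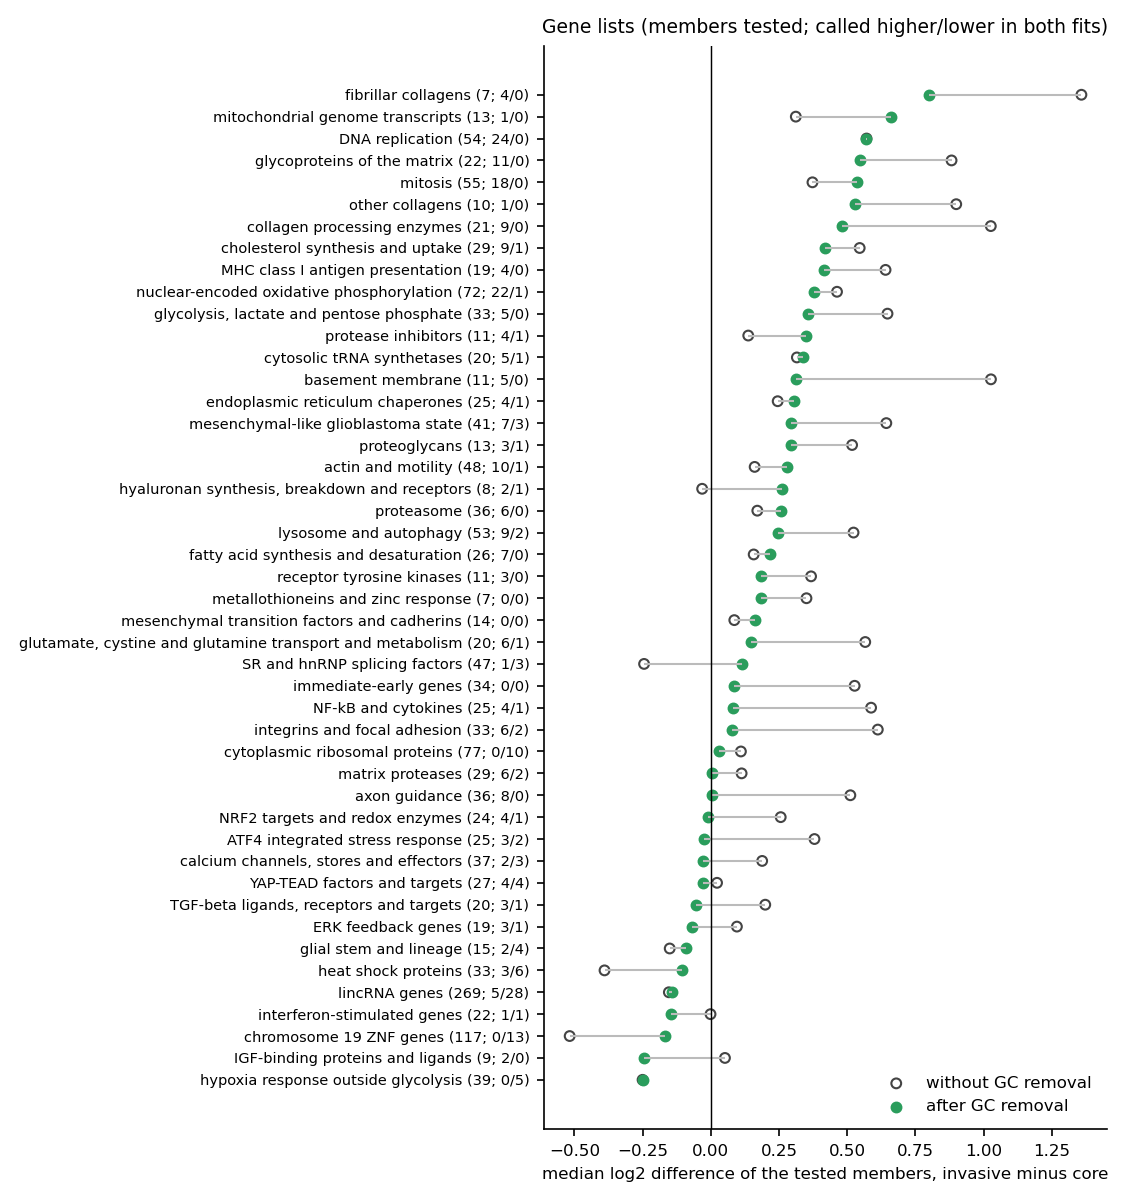
Median log2 difference (invasive minus core, horizontal axis) of the tested members of each gene list shown, before (open) and after (filled) removal of the GC trend, with the members tested and those called higher/lower in both fits in brackets. Fibrillar collagens are highest before and after removal, hypoxia genes are lowest after it, DNA replication genes keep 0.57, and immediate-early genes move from 0.53 to 0.08.

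Of 269 long intergenic noncoding RNA genes tested 5 rose and 28 fell, and of 44 sense intronic genes 0 rose and 9 fell. Of 288 antisense genes 8 rose and 24 fell. Mitochondrial tRNA genes went the other way, with 3 of 20 rising and 0 falling, and 8 called higher with removal. The share of fragments on long intergenic RNAs was 0.366 to 0.517% in core and 0.173 to 0.254% in invasive libraries. Of 117 zinc finger genes on chromosome 19, 0 rose and 13 fell, with a median that went from log2 -0.52 to -0.17 when the trend was removed. The long intergenic share moved with the number of genes detected, which was lower in each invasive library than in any core library, and the part of that number in these differences was not tested.

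The genes that GC removal moved most were checked among those of at least 20 FPKM. ZNF787 (70.3% GC), a zinc finger gene, was at 28.3 ± 11.3 FPKM in invasive and 13.1 ± 3.27 FPKM in core libraries and went from log2 1.01 (limma adjusted p = 0.0136) to 0.14 (limma adjusted p = 0.523). TMEM160 and HCN2, with like GC contents, kept both calls at smaller sizes (log2 1.48 without and 0.60 with GC removal, and log2 1.63 without and 0.76 with GC removal). At the other end, MZT1 (31.97% GC), a factor for microtubule nucleation, went from log2 -0.74 to 0.08 (-0.39 after removal under quantile normalization), and CXCL8, the chemokine interleukin 8 (33.4% GC), from log2 -1.53 (limma adjusted p = 0.00858) to -0.73 (limma adjusted p = 0.0759). ESD, an esterase, went from log2 -0.11 to 0.69 and was called in neither fit.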

How the data were processed

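The authors deposited 1 table of FPKM per gene with the gene lengths used. Alignment with HISAT2 2.0.5 to GRCh38 and counting with featureCounts 1.5.0-p3 are listed in the submitters' processing notes, with no settings. Use of strand is not given in the sources used here, so overlapping or antisense genes are uncertain. FPKM times length gave whole fragments for 100% of values (tolerance 0.01), 15.6 to 23.7 M per library. Relative to that gene total, the authors' divisor was 1.10 to 1.23 in core and 0.788 to 1.06 in invasive libraries, and nothing in the sources says why. The limit allowed by a count of 0 was set at 3 fragments, for counting error alone.

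Columns were mapped to libraries by the column names in the labels, and 0 value columns were left unmapped. Values were analysed as log2(FPKM + 1) in Python 3.11.15 and R 4.3.3. Fold changes on this scale understate the change of low genes. Limma 3.58.1 fitted 1 mean per fraction to the 6 libraries with a mean-variance trend, and p was adjusted over 11313 genes by Benjamini-Hochberg. GC content of the longest transcript in GENCODE 29 was known for 99.96% of them. The second fit subtracted a loess trend (span 0.3, degree 1) from each library. Both fits were tested on simulated data. With 3 libraries a fraction, exact permutation cannot reach a p under 0.1, so none is given. Promoters are RefSeq windows matched by symbol.

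Named genes are the 12 highest and 12 lowest protein-coding genes of at least 5 FPKM that were called in both fits with fractions that do not overlap, up to 4 members per list by p after GC removal, defining members of lists, and the 3 genes of at least 20 FPKM moved most each way by removal. Other members called in a list were named after their values were seen. Of 1657 entries in 46 lists, 1656 matched. The comparison, the lists and the rules were chosen with earlier results of these data known. Alternatives were the pseudocount, filter, scaling, replicate block, GC settings, all 9 libraries, robust or weighted fits, voom on fragments, a fold above 1.2, protein-coding genes and leaving out each library.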

Additional observations from a re-analysis of the deposited data

How the results depend on the processing

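The number of genes called without GC removal, 6182, was 3546 with no filter, 3195 for a fold above 1.2, 13 with all 9 libraries, and 2312, 2414 and 2319 after removal of the GC trend with span 0.3, span 0.7 and GC with length. It ran from 3732 (without core replicate 3) to 6468 when 1 library was left out. The number after removal, 2312, was 6894 with no filter, 289 for a fold above 1.2, 53 with all 9 libraries, and 421 to 2055 when 1 library was left out (421 without core replicate 3, 461 without core replicate 2, 1066 without invasive replicate 1 and 1326 without core replicate 1). A fraction left with 2 libraries was fitted with limma's spread pooled over all 5. Under pseudocounts of 0.1 and 0.5, a filter of 5 FPKM, median-of-ratios, quantile, robust, weighted and protein-coding settings, both counts stayed within 1.5 times. The cause of the moves was not tested. The Spearman correlation with GC content, 0.77, was 0.532 with no filter and 0.0446, 0.0432 and 0.0376 after the 3 removals, which take out that trend by construction. Without removal MZT1 was lower, but it was at log2 0.084, 0.28 and 0.055, and WWTR1 at 0.037, 0.0031 and 0.043, after removal with span 0.3, span 0.7 and GC with length. With span 0.7, ESD was at log2 0.81 and ZNF787 at -0.029. Replicate numbers are shared by the fractions, and the column names also share a number between a core and an invasive library. The labels do not say that a number marks a shared device. Same-numbered libraries deviated together by correlations of 0.0195, 0.268 and 0.485 (0.0368, 0.19 and 0.241 after GC removal), all above 0. Core replicate 1 correlated best with invasive replicate 2 before removal (0.21). Invasive replicate 1 correlated best with core replicate 3 (0.0698, and 0.0612 after removal). Whether the libraries are paired could not be told, and the main fits did not pair them. With a replicate block 7075 genes were called, and 2683 with the block and GC removal. Depth of 15.6 to 23.7 M limits genes near 1 FPKM.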

Other observations

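Few genes ran against the GC trend before it was removed. In the tenth of genes with the lowest GC content, 5 were called higher in the invasive fraction, and they are named here after their values were seen. NBDY, which encodes a microprotein of mRNA decapping bodies, was at 23.5, 27.4 and 25.6 FPKM in the core and 43.7, 36.7 and 35.4 FPKM in the invasive libraries. PRCP, a lysosomal carboxypeptidase, was at 7.73, 7.28 and 7.71 FPKM in the core and 11.6, 11.2 and 9.61 FPKM in the invasive libraries. CPT2, a carnitine palmitoyltransferase of mitochondrial fatty acid oxidation, was at 1.28, 1.23 and 1.26 FPKM in the core and 2.14, 2.29 and 1.82 FPKM in the invasive libraries. LPCAT2, an acyltransferase of phospholipid remodelling, and MMP24OS were the others. The fractions did not overlap for any of the 5, which were called in both fits, with limma adjusted p from 0.0158 (NBDY) to 0.0492 (LPCAT2) before removal and from 0.00896 (NBDY) to 0.0271 (MMP24OS) after it. In the tenth with the highest GC content, HIST2H3D, a histone H3 gene with near-identical copies whose reads can be split between them, was the 1 protein-coding gene among the 3 called lower, at 2.89, 3.68 and 2.48 FPKM in the core and 1.6, 2.3 and 0.366 FPKM in the invasive libraries.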
